A study of Homo sapiens with 6 samples.

Results

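Gene expression in the 2 libraries labelled KO 2#, a set of H1 cells labelled as BRPF1 knockout, was compared with that in the 2 libraries labelled WT across all genes of a deposited count table. The 4 libraries are part of 6, the other 2 being labelled KO 1#, a second BRPF1 knockout set. H1 is a human embryonic stem cell line, and all groups carry that background. The labels name no treatment, time point, editing tool or edited exon. They do not say what 1# and 2# stand for, whether KO 2# was 1 clone, or whether the replicates were separate cultures, so the p-values may measure a technical spread only. Total counts were 37407858 and 34164830 in WT and 33421785 and 35643288 in KO 2#. Levels are given as CPM, counts rescaled so that libraries can be compared, as mean ± SD (standard deviation) with n = 2 in each group.

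BRPF1 is a scaffold protein of histone acetyltransferase complexes built around MOZ (KAT6A), MORF (KAT6B) or HBO1 (KAT7), which acetylate histone H3 at active genes. Embryonic stem cells are an epithelial cell type that divides quickly and is held in a pluripotent state by a small network of transcription factors around OCT4 (POU5F1), SOX2 and NANOG. When such cells leave that state they shut these factors off, and in a transition to mesenchyme they also trade cell junctions for a fibrous matrix and a contractile cytoskeleton.

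BRPF1 itself (ENSG00000156983, GRCh38 chromosome 3, 9731729 to 9748018, plus strand) had 1483 and 1111 counts in WT and 702 and 701 in KO 2#. Its level was 25.7 ± 3.68 CPM in WT and 24.5 ± 1.26 CPM in KO 2#, and the KO 2# libraries lay inside the range of the WT libraries. No difference was detected (log2 fold change -0.071, SE 0.12, adjusted p = 0.609, 95% interval -0.32 to 0.18). The sign turned to 0.082 without WT replicate 1, and with library totals in place of the scaling used it was -0.83 (adjusted p = 3.91e-06), close to the median of all genes on that scale. A count over the whole gene does not show whether its transcripts carry an edit, so this does not check the knockout label.

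The defining markers of embryonic stem cells were present in WT and all fell in KO 2#, to different levels. Of 6 defining markers, POU5F1, NANOG and LIN28A were at or near 0 in KO 2#, SOX2 and DNMT3B remained at 1.97 and 2.91 CPM, and PODXL, a surface sialoprotein, fell from 1305 ± 32.3 to 89.0 ± 5.54 CPM. KO 2# held POU5F1 at 1 and 1 counts and NANOG at 0 and 0, against 91263 and 75872 and 5625 and 5758 in WT. In bulk RNA fewer cells of a type and less RNA per cell cannot be told apart.

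Of 19660 genes that passed the low-count filter, 6795 (34.6%) were called higher in KO 2# than in WT and 7688 (39.1%) lower, at an adjusted p below 0.05. Another 5177 genes were not called. Both KO 2# libraries lay above both WT libraries in 7935 tested genes and below both in 9296, so groups that do not overlap were the common case. In all 73.7% of tested genes were called, and a share of a gene list near this background says nothing particular about the list. The fitted log2 fold change had a median of -0.13 and quartiles of -1.46 and 0.99. Among called genes 4507 were more than 2-fold higher and 5470 more than 2-fold lower, and 1050 were more than 16-fold higher and 2166 more than 16-fold lower. Among the 14058 genes with at least 10 counts in each of the 4 libraries, 5740 were called higher and 4920 lower. Genes silent in KO 2# were more numerous than genes silent in WT, with 1033 tested genes at 0 counts in both KO 2# libraries and 185 at 0 in both WT libraries. The number of genes with any count was 30141 and 31102 in the WT libraries and 23118 and 23425 in the KO 2# libraries. The scaling factors applied to the totals were 1.40 and 1.41 in WT and 0.83 and 0.83 in KO 2#. At an equal CPM a gene therefore has fewer expected counts in KO 2#, and the share of this in the genes at 0 was not tested. The 10 most counted genes held 6.11% and 6.30% of the WT counts and 22.7% and 22.5% of the KO 2# counts. The split of calls depended on the scaling between libraries. With library totals in place of the trimmed mean of M values (TMM) the median of all genes moved to -0.89 and the split to 4085 higher and 11437 lower, and with totals that leave out the 20 most abundant genes to -0.54, with 5187 higher and 9772 lower.

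**Figure D1:**
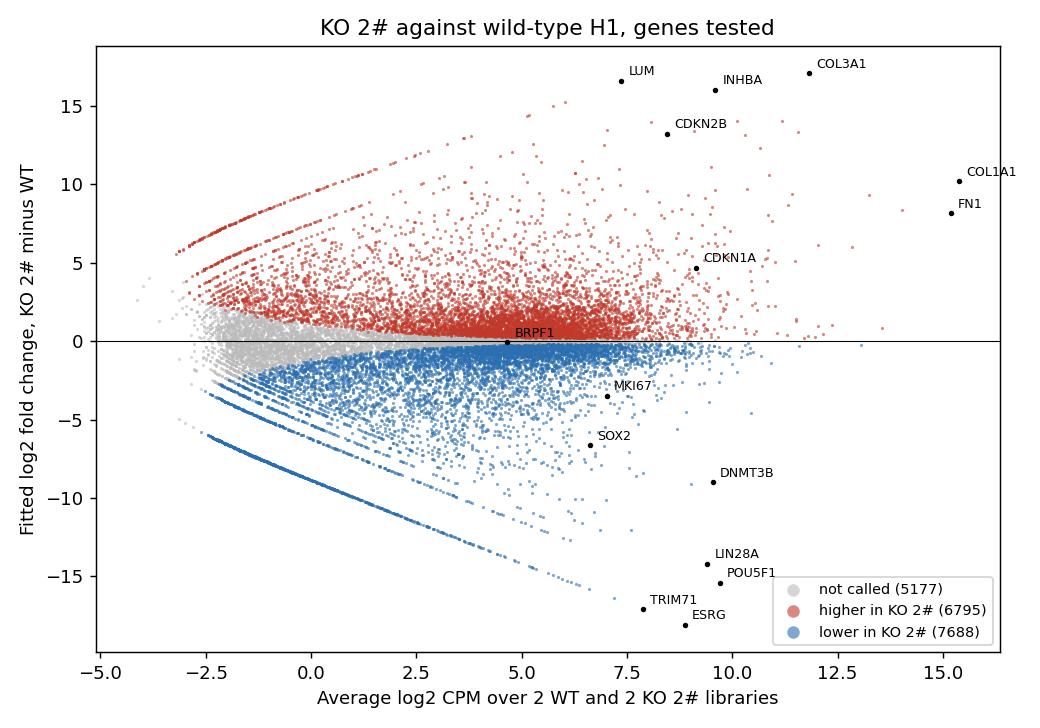
Fitted log2 fold change in KO 2# against WT (vertical axis) by average log2 CPM over the 4 libraries (horizontal axis), 1 point per tested gene, with 6795 genes called higher in red, 7688 called lower in blue and 5177 not called in grey. Named genes are black: COL1A1 and FN1 lie farthest to the right, TRIM71 and ESRG lowest, and BRPF1 on the 0 line, while curved lines of points at the edges are genes with 0 or very few counts in 1 group, whose fitted fold is set by the prior count.

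The transcription factors of pluripotency fell. Of the list of 20, 2 were called higher and 18 lower of 20 tested (median log2 fold change -10.38; -7.77 once genes at 0 counts take their bound). POU5F1, the factor OCT4 (GRCh38 chromosome 6, 31164337 to 31180731, minus strand), had 91263 and 75872 counts in WT and 1 and 1 in KO 2#, with a WT to KO 2# ratio of 47692 (95% exact interval 13202 to 393813). NANOG, with 5625 and 5758 counts in WT and 0 in both KO 2# libraries, was at least 1084-fold lower. SOX2, the partner of OCT4, had 10383 and 9093 counts in WT and 65 and 47 in KO 2# (log2 fold change -6.63, SE 0.14, adjusted p = 1.80e-17). Both KO 2# libraries lay below both WT libraries for each of these factors, as in 9296 of all 19660 tested genes. The zinc finger factor ZSCAN10 had 15846 and 13431 counts in WT and VRTN had 10448 and 8857. Both were at 0 counts in KO 2#, ZSCAN10 at least 2776-fold and VRTN at least 1831-fold lower. The 2 members called higher were the Krüppel-like factors KLF4 and KLF5, and KLF5 went from 1.85 ± 0.182 to 6.36 ± 0.173 CPM. In this and the following lists a member that is silent in 1 group can pass the count filter only through the other group, so the counts describe the tested members and not all members.

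RNA-binding and DNA methylation genes of the stem cell state fell too. Of this list 3 were called higher and 15 lower of 20 tested (median -3.91; -2.38 once genes at 0 counts take their bound). LIN28A, which blocks the maturation of let-7 microRNAs, had 71834 and 64761 counts in WT and 1 and 3 in KO 2#. TRIM71, an RNA repressor and ubiquitin ligase that is itself a let-7 target, had 24479 and 22512 counts in WT and 0 and 0 in KO 2# and was at least 4464-fold lower. TERT, the catalytic subunit of telomerase, had 2056 and 1512 counts in WT and 0 and 0 in KO 2# and was at least 337-fold lower. DNMT3B, a de novo DNA methyltransferase, had 79677 and 68823 counts in WT and 92 and 74 in KO 2# (log2 fold change -8.99, SE 0.11, adjusted p = 1.93e-20). L1TD1, an RNA-binding protein derived from a LINE-1 element, fell from 419 ± 20.9 to 1.12 ± 0.624 CPM. HMGA1, a DNA-bending chromatin protein with several processed copies in the genome that can share its reads, fell from 2658 ± 93.9 to 113 ± 1.03 CPM, one of the 6 largest losses in CPM. In each of these genes the WT and KO 2# libraries stood clear of each other, as they did in most tested genes.

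Noncoding RNAs changed in both directions. ESRG, a long noncoding RNA of human embryonic stem cells, held 47419 and 45995 counts in WT and 0 in both KO 2# libraries and was at least 8884-fold lower. The noncoding LINC00678 was at least 1553-fold lower, AL117378.1 at least 1474-fold and AC064802.1 at least 1349.9-fold. Each of these had 0 counts in both KO 2# libraries. In the opposite direction LINC01614, which overlaps LINC00607 on the opposite strand, had 0 counts in WT and 1916 and 2190 in KO 2#. DNM3OS, the host transcript of miR-199a and miR-214 inside DNM3, had 0 counts in WT and 792 and 902 in KO 2#, at least 493-fold higher. Of the list of noncoding RNAs and host genes 11 were called higher and 12 lower of 25 tested (median -0.22). Over all annotated long noncoding RNAs 684 of 3004 tested were called higher and 953 lower, against 5841 higher and 6244 lower of 15191 protein-coding genes.

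NODAL, activin and FGF signals, on which human embryonic stem cells depend in culture, moved apart by member. Of this list 9 were called higher and 20 lower of 30 tested (median -1.89). TDGF1, the NODAL co-receptor CRIPTO, had 19227 and 19199 counts in WT and 4 and 1 in KO 2#. FGF19, a secreted growth factor, had 954 and 863 counts in WT and 0 and 0 in KO 2# and was at least 173-fold lower. INHBA, whose protein forms activin A, had 1 count in each WT library and 42616 and 46303 in KO 2#, with a KO 2# to WT ratio of 77903 (95% exact interval 21565 to 643281). FGF7, a growth factor made by mesenchyme for epithelium, had 0 counts in WT and 757 and 746 in KO 2#, at least 439-fold higher. It overlaps FAM227B on the opposite strand, and since the strand setting of the counting is not given in the sources used here, reads of overlapping genes may be counted together. Overlaps are named where the neighbour held at least 10% of the gene's own counts over the 4 libraries.

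Surface and junction genes of the epithelial stem cell fell. Of the stem cell surface list 3 were called higher and 17 lower of 20 tested (median -4.16). CD24, a small surface glycoprotein with known processed copies, had 51697 and 51492 counts in WT and 42 and 64 in KO 2# (log2 fold change -9.12, SE 0.12, adjusted p = 2.11e-20). B3GALT5, a glycosyltransferase of the stem cell surface glycolipids, had 5946 and 5578 counts in WT and 14 and 10 in KO 2#. CDH3, P-cadherin, had 31 and 9 counts in KO 2# against 10642 and 9067 in WT. TNFRSF8, the CD30 receptor, had 1308 and 1098 counts in WT and 1 and 0 in KO 2#. Of the epithelial list 2 were called higher and 31 lower of 34 tested (median -7.06). ESRP1, an epithelial splicing regulator, had 7211 and 6721 counts in WT and 1 and 0 in KO 2#. The tight junction protein CGN had 1 and 0 counts in KO 2# against 5286 and 4217 in WT. Likewise nearly silent were the membrane protease PRSS8, with 1 and 0 counts in KO 2# against 4904 and 4146 in WT, and the membrane protein MAL2, with 4424 and 4272 counts in WT and at most 1 count in KO 2#. EPCAM and CDH1, named outside the naming rule with their values known, are the standard adhesion markers of epithelium. EPCAM had 8586 and 8649 counts in WT and 2 and 1 in KO 2#. CDH1, E-cadherin, had 17 and 57 counts in KO 2# against 10715 and 10272 in WT (log2 fold change -7.34, SE 0.20, adjusted p = 7.29e-16). For CDH1 the KO 2# libraries differed from each other by over 3-fold and both lay far below WT.

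LRRN1, a leucine-rich repeat membrane protein that overlaps SUMF1, had 5806 and 5822 counts in WT and 10 and 13 in KO 2#. NR6A1, the germ cell nuclear factor, had 26 and 30 counts in KO 2# against 12265 and 11320 in WT. PDZD4, a protein with a PDZ domain, had 20277 and 16880 counts in WT and 32 and 47 in KO 2#. SFRP2, a secreted WNT antagonist of the WNT list, had 24735 and 22201 counts in WT and 45 and 32 in KO 2# (log2 fold change -8.44, SE 0.12, adjusted p = 1.07e-19). These are among the 8 largest falls of genes with at least 10 counts in each of the 4 libraries, where the fold does not rest on a prior count.

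Transcription factors of mesenchyme rose. Of this list 34 were called higher and 7 lower of 43 tested (median 4.91). PRRX1, a homeobox factor of limb and craniofacial mesenchyme, had 19 and 10 counts in WT and 6584 and 7326 in KO 2# (log2 fold change 9.70, SE 0.15, adjusted p = 2.27e-19). TBX18, a T-box factor of somite, heart and kidney mesenchyme, had 1 and 2 counts in WT and 970 and 1177 in KO 2#. NR2F1, an orphan nuclear receptor with NR2F1-AS1 on its opposite strand, had 509 and 599 counts in KO 2# against 1 and 0 in WT. TBX2 had 0 counts in WT and 65 and 92 in KO 2#. GATA6 of the endoderm list, a factor also expressed in mesoderm, rose from 0.0478 ± 0.0675 to 29.9 ± 0.411 CPM. SNAI2, a repressor of E-cadherin, rose from 0.517 ± 0.299 to 142 ± 0.812 CPM. The intermediate filament gene VIM, a standard marker of mesenchyme, rose from 24.3 ± 0.386 to 1760.0 ± 20.3 CPM, a 72.4-fold difference. Of the keratin and intermediate filament list 10 were called higher and 4 lower of 14 tested, and KRT7 was among the higher ones, from 3.64 ± 0.878 to 138 ± 5.76 CPM.

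HOX genes, which give cells a position along the body axis and are silent in embryonic stem cells, appeared in KO 2#. Over all 39 HOX genes the WT libraries held 13 and 11 counts and the KO 2# libraries 2126 and 2226. Of the 39 genes 15 passed the filter and 15 were called higher (median 7.79; 5.62 once genes at 0 counts take their bound). With so few WT counts a HOX gene could hardly pass the filter except through the knockout libraries. The direction of these 15 calls was therefore set by the filter. HOXB3 had 0 counts in WT and 345 and 276 in KO 2#, HOXB7 252 and 272, HOXB4 137 and 178 and HOXB5 63 and 107. HOXB3 was at least 182-fold and HOXB7 at least 153-fold higher. HOXB3 overlaps HOXB4 and HOXB5 on the same strand, so their reads may be shared. These levels were low beside those of matrix genes, at 9.15 ± 0.0312 CPM for HOXB7.

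Of the members of the cadherin and stromal surface list 18 were called higher and 4 lower of 22 tested (median 3.71). ITGA11, a collagen-binding integrin of fibroblasts, had 25 and 34 counts in WT and 168417 and 176623 in KO 2# (log2 fold change 13.31, SE 0.11, adjusted p = 9.29e-23). NT5E, the mesenchymal surface enzyme CD73, had 21 and 46 counts in WT and 13829 and 15275 in KO 2#. CDH6, a cadherin of kidney and neural crest, had 1189 and 1475 counts in KO 2# against 12 and 10 in WT. VCAM1, an adhesion receptor, had 0 counts in WT and 70 and 53 in KO 2#. The member that fell most was NGFR, a neurotrophin receptor, with 1018 and 868 counts in WT and 3 and 10 in KO 2#.

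**Figure D2:**
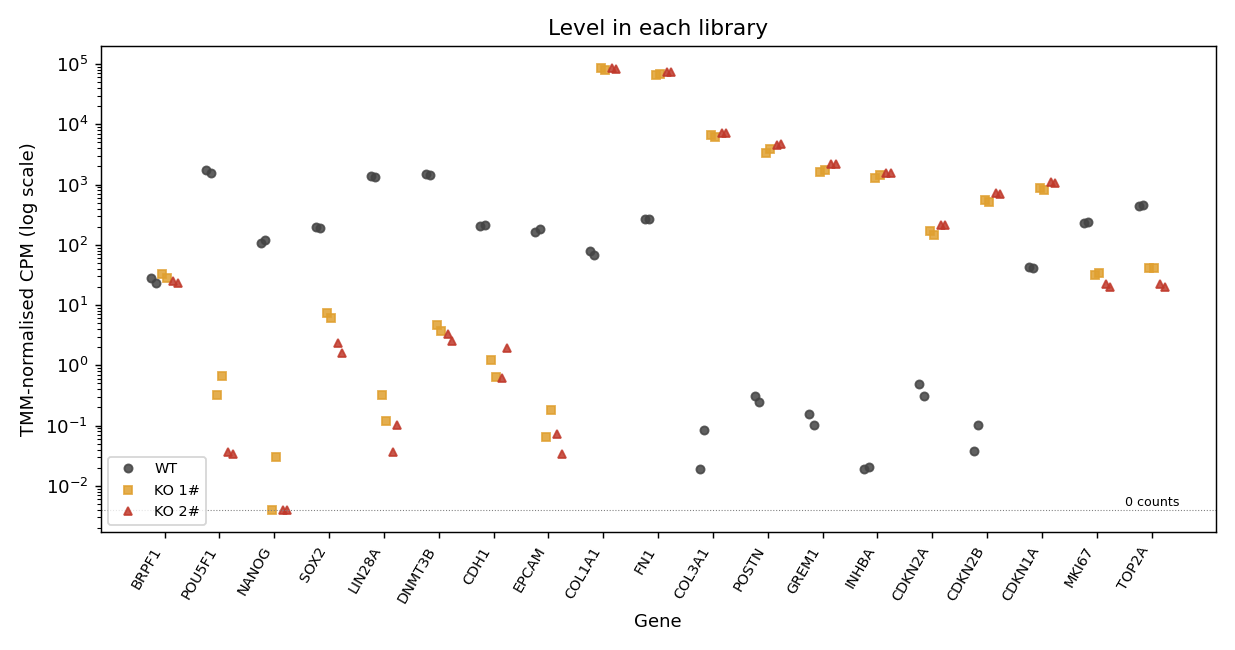
Level of 19 genes in each of the 6 libraries, as TMM-normalised CPM on a log axis, with WT as grey circles, KO 1# as orange squares and KO 2# as red triangles, and libraries at 0 counts on the dotted line. BRPF1 lies at one level in all groups, and the stem cell genes from POU5F1 to EPCAM drop in the knockout libraries. The matrix genes from COL1A1 to POSTN and the BMP antagonist GREM1 rise.

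Collagen genes took over a large part of the KO 2# libraries. They held 0.252% and 0.231% of all counts in the WT libraries and 15.5% and 15.1% in the KO 2# libraries. Of the list 26 were called higher and 9 lower of 37 tested (median 4.43). COL1A1, a chain of type I collagen (GRCh38 chromosome 17, 50183289 to 50201632, minus strand), had 4099 and 3223 counts in WT and 2370234 and 2493618 in KO 2#, or 72.7 ± 7.93 and 84925 ± 1249 CPM. Per kilobase of exon its level went from 7.40 to 8649 CPM. Its partner chain COL1A2 rose from 104 ± 3.83 to 33566 ± 613 CPM. COL3A1, the type III chain, had 1 and 4 counts in WT and 201455 and 212407 in KO 2# and held the largest fitted rise (log2 fold change 17.05, SE 0.14, adjusted p = 9.29e-23), a size that rests on 5 WT counts. COL8A1, COL12A1 and COL15A1 rose from 0.639, 2.42 and 0.171 CPM in WT to 3222, 3776 and 228 CPM. COL5A1, a fibril-regulating chain, rose from 31.2 ± 3.70 to 19378 ± 815 CPM. COL4A1, a basement membrane chain that shares its locus with COL4A2, rose from 121 ± 3.60 to 8296 ± 224 CPM. Both KO 2# libraries lay above both WT libraries in each of these genes, as in 7935 of all 19660 tested genes.

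Enzymes that modify and crosslink collagen rose with the chains. Of this list 28 were called higher and 2 lower of 30 tested (median 3.09). LOX, lysyl oxidase, had 133 and 102 counts in WT and 35595 and 39820 in KO 2# (log2 fold change 9.13, SE 0.10, adjusted p = 3.17e-21), and its relative LOXL1 rose from 13.3 ± 0.0545 to 440.3 ± 1.26 CPM. BMP1, the protease that removes the carboxy-terminal propeptide of procollagen, rose from 4.32 ± 0.135 to 521 ± 21.3 CPM. P4HA3, a subunit of prolyl hydroxylase, rose from 0.243 ± 0.127 to 24.5 ± 1.76 CPM.

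Glycoproteins of the matrix followed. Of this list 33 were called higher and 4 lower of 38 tested (median 4.93). FN1, fibronectin, had 13905 and 12674 counts in WT and 2049042 and 2204975 in KO 2# (log2 fold change 8.13, SE 0.060, adjusted p = 7.91e-23) and at 74247 CPM was second in CPM to COL1A1 among the 6 largest gains. POSTN, periostin, had 16 and 12 counts in WT and 126487 and 141033 in KO 2#. LUM, lumican, a small proteoglycan of collagen fibrils, had 0 counts in WT and 8999 and 9995 in KO 2#, at least 5533-fold higher. SPARC, a collagen-binding glycoprotein, rose from 231 ± 0.424 to 14562 ± 35.0 CPM. LTBP2, a microfibril protein, rose from 1.96 ± 0.234 to 1533 ± 56.8 CPM, and TGFBI, a matrix protein induced by TGF-beta, from 8.38 ± 0.565 to 5484 ± 42.8 CPM. Of integrins and laminins 19 were called higher and 10 lower of 30 tested (median 1.68). In that list ITGA10 rose from 0.337 ± 0.0641 to 67.1 ± 4.55 CPM, while LAMA1, the laminin chain of the early embryo, fell from 136 ± 3.15 to 2.78 ± 0.733 CPM.

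Proteases of the matrix and their inhibitors also rose, with 24 higher and 2 lower of 29 tested (median 4.56), or 23 higher and 6 lower with scaling by totals. FAP, fibroblast activation protein, had 0 counts in WT and 3010 and 3286 in KO 2#, at least 1835-fold higher. The collagenases MMP1 and MMP13 had 0 counts in WT and 357 and 354 and 553 and 607 in KO 2#. ADAM12, a disintegrin metalloprotease, had 21 and 12 counts in WT and 9154 and 9526 in KO 2#. PAPPA, which cleaves IGF-binding proteins, had 40 and 25 counts in WT and 39760 and 42388 in KO 2# (log2 fold change 11.11, SE 0.11, adjusted p = 7.25e-22).

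The list of fibroblast and feeder cell markers overlaps the matrix lists and 20 of its 20 members were called higher, or 19 higher and 1 lower with scaling by totals. The member that turned is THY1, a surface glycoprotein of stem cells and fibroblasts, which had 19543 and 17413 counts in WT and 11359 and 12322 in KO 2# (log2 fold change 0.17, SE 0.058, adjusted p = 0.0152), -0.59 with totals, and which was not called without WT replicate 2 or without either KO 2# replicate. The summed level of the whole list was 1367 and 1381 CPM in the WT libraries and 154480.0 and 151789 CPM in the KO 2# libraries. The defining members COL1A1, COL1A2 and COL3A1 were all high in KO 2#. Whether the KO 2# RNA came from cells derived from H1 or held RNA of other cells in the culture was not tested.

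Genes of the contractile cytoskeleton rose, 28 of 32 tested, with 2 lower (median 2.19), or 25 higher and 7 lower with scaling by totals. ACTA2, smooth muscle actin, had 25 and 20 counts in WT and 613 and 749 in KO 2# (log2 fold change 5.72, SE 0.20, adjusted p = 2.49e-14) and lies opposite FAS and STAMBPL1. TAGLN, transgelin, rose from 46.9 ± 0.905 to 957 ± 13.9 CPM, FLNC, a filamin, from 13.0 ± 0.0996 to 362 ± 17.7 CPM, and TGFB1I1, the focal adhesion protein HIC5, from 6.78 ± 0.0820 to 168 ± 6.29 CPM. Of the YAP, TAZ and TEAD list 16 were called higher and 3 lower of 19 tested (median 1.35). Its targets ANKRD1, CTGF and CYR61 rose, ANKRD1 from 0.0998 ± 0.00605 to 1098 ± 27.3 CPM, CTGF from 120.1 ± 2.49 to 2603 ± 44.6 CPM and CYR61 from 71.1 ± 2.56 to 749 ± 15.6 CPM. WWTR1, the coactivator TAZ, rose from 16.3 ± 1.66 to 268 ± 3.11 CPM.

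Among secreted signals, 21 of the TGF-beta and BMP list were higher and 9 lower of 33 tested (median 1.74). GREM1, a secreted BMP antagonist, had 8 and 5 counts in WT and 60858 and 65396 in KO 2# (log2 fold change 14.02, SE 0.12, adjusted p = 9.29e-23). TGFB2 rose from 0.996 ± 0.00405 to 182 ± 9.38 CPM and GDF6 from 0.219 ± 0.0149 to 37.6 ± 0.344 CPM, and BMP5 had 1 and 0 counts in WT and 86 and 115 in KO 2#. IGF2, a fetal growth factor expressed from the paternal allele, had 0 and 3 counts in WT and 15054 and 15884 in KO 2#, with a KO 2# to WT ratio of 18070.1 (95% exact interval 6183 to 87628). The IGF-binding proteins IGFBP3, IGFBP5 and IGFBP7 rose, and IGFBP7, which overlaps POLR2B, had 12 and 16 counts in WT and 68949 and 76359 in KO 2#. IGFBP3 had 71318 and 77652 counts in KO 2# against 162 and 148 in WT. The WNT antagonists split: DKK1 had 6 and 6 counts in WT and 2435 and 2516 in KO 2#, while SFRP2 fell as given above. FZD5, a WNT receptor, had 29 and 3 counts in KO 2# against 5848 and 5031 in WT. As lists, growth factors and their receptors (15 higher, 11 lower, median 0.53) and WNT genes (14 higher, 8 lower, median 0.15) split, and with scaling by totals their medians turned to -0.23 and -0.61 and the WNT split to 12 higher and 13 lower. RGS1, a regulator of G protein signalling known from immune cells, had 0 counts in WT and 3497 and 4066 in KO 2#, at least 2202-fold higher.

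Inflammatory genes moved in part. Of cytokines, chemokines and NF-kappaB targets 17 were called higher and 6 lower of 25 tested (median 2.13). CXCL8 had 0 counts in WT and 16 and 23 in KO 2#, and the chemokine CCL20 had 55 and 93 counts in KO 2# against 1 and 0 in WT. CCL26, another chemokine, had 39 and 18 counts in WT and was at 0 in KO 2#. Of HLA class I and peptide loading genes 9 were called higher and 4 lower of 15 tested (median 1.21), or 8 and 6 with scaling by totals, with PSMB10 higher from 0.374 ± 0.178 to 1.97 ± 0.0257 CPM and its immunoproteasome partner PSMB8 lower from 10.3 ± 1.99 to 1.72 ± 0.433 CPM.

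DNA replication and mitosis genes fell almost as a block. Of 36 DNA replication genes tested 34 were called lower and the others were not called (median -2.87), and of 33 mitosis genes 33 were called lower (median -3.71). ORC1, a subunit of the origin recognition complex, had 2364 and 2139 counts in WT and 36 and 28 in KO 2#. CDT1, a licensing factor, had 128 and 188 counts in KO 2# against 7762 and 6874 in WT. PRIM1, the primase subunit, which overlaps HSD17B6 and NACA, had 34 and 25 counts in KO 2# against 1131 and 1221 in WT. MCM10, a replisome factor, had 2086 and 1937 counts in WT and 91 and 49 in KO 2#. TOP2A, the topoisomerase of mitotic chromosomes, had 22737 and 21836 counts in WT and 624 and 600 in KO 2# (log2 fold change -4.38, SE 0.081, adjusted p = 3.02e-18). BUB1B, a spindle checkpoint kinase, had 8190 and 7358 counts in WT and 152 and 182 in KO 2#. CDK1, the mitotic kinase, had 151 and 175 counts in KO 2# against 5509 and 5681 in WT. HMMR, a spindle protein, had 3121 and 3164 counts in WT and 44 and 55 in KO 2#. All 4 libraries of these genes separated by group, as they did in most tested genes. These transcripts stayed above 0 in KO 2#, unlike those of NANOG and ZSCAN10. Of recombination and Fanconi repair genes, which are expressed with replication, 2 were called higher and 25 lower of 30 tested (median -1.95), with FANCD2 at 3947 and 3685 counts in WT and 81 and 92 in KO 2#.

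Many mitosis genes are controlled through a CHR element, the letters TTTGAA, together with CCAAT boxes. In 300 bases around the annotated start (250 before and 50 after, RefSeq on GRCh38.p14), searched on both strands, TTTGAA was found in 20 of the 28 mitosis genes with a promoter in the table (71.4%), against 15.4% of all 27305 promoters. CCAAT was found in 21 of the 28 (75%), against 35.7% of all. The letters TTTNGCGC, a form of the E2F site, were found in 11 of 31 DNA replication genes (35.5%), against 1.83% of all. Motifs were searched separately, and matches of the same motif may overlap or abut. The stretches below, shown because these genes fell in KO 2# and are also lower in KO 2# than in KO 1#, have the CHR letters in capitals.
BUB1B (chr15:40161021-40161068, plus strand): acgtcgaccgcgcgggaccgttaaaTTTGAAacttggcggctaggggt
CDK1 (chr10:60778145-60778200, plus strand): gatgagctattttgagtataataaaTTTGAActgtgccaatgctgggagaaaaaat
HMMR (chr5:163460585-163460631, plus strand): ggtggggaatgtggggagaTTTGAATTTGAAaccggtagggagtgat
MKI67 (chr10:128126424-128126477, minus strand): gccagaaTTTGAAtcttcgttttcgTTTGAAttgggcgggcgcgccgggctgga
PLK1 (chr16:23678835-23678888, plus strand): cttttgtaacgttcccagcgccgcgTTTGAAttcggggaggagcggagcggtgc
HMMR holds the letters as 2 abutting copies and MKI67 as 2 separate ones. A match is a description of letters and not a sign that the site is used. MKI67, the proliferation marker Ki-67, had 12258 and 11574 counts in WT and 628 and 585 in KO 2#. PLK1, a mitotic kinase, had 314 and 305 counts in KO 2# against 6251 and 5723 in WT. Both were named for these stretches with their values known.

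Inhibitors of cyclin-dependent kinases stood among the rising genes. Of the list of G1 cyclins, inhibitors, RB and E2F genes 17 were called higher and 12 lower of 29 tested (median 0.61, -0.15 with scaling by totals). CDKN2B, the inhibitor p15, had 2 and 5 counts in WT and 19664 and 20408 in KO 2# (log2 fold change 13.22, SE 0.14, adjusted p = 2.22e-21). CDKN2A, which encodes p16 and ARF from the neighbouring locus, had 26 and 15 counts in WT and 5921 and 6324 in KO 2# (log2 fold change 9.02, SE 0.15, adjusted p = 7.46e-19). CDKN1A, the inhibitor p21, had 2251 and 1989 counts in WT and 30717 and 31514 in KO 2# (log2 fold change 4.69, SE 0.071, adjusted p = 2.27e-19). The list also holds MYCL, a MYC family gene outside these classes, which was lower, with 1480 and 1376 counts in WT and 6 and 7 in KO 2#. Another lower member, E2F2, had 1 and 8 counts in KO 2# against 535 and 486 in WT. Of p53 targets 19 were called higher and 8 lower of 31 tested (median 1.55), or 18 and 13 with scaling by totals, with ZMAT3 rising from 23.1 ± 0.967 to 269.8 ± 6.05 CPM, SPATA18 from 4.56 ± 0.499 to 52.7 ± 0.101 CPM and FAS, which lies opposite ACTA2, from 1.32 ± 0.342 to 13.2 ± 1.55 CPM.

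Interferon-stimulated genes rose in part. Of this list 22 were called higher and 4 lower of 29 tested (median 1.85). IFI44L had 0 counts in WT and 1868 and 2389 in KO 2#, at least 1237-fold higher. Its neighbour IFI44 and OAS1, a sensor of double-stranded RNA, were also at 0 in WT and had 655 and 877 and 67 and 95 counts in KO 2#. IFIT2, with LIPA on the opposite strand, had 1 and 1 counts in WT and 55 and 46 in KO 2#. Many such genes carry the ISRE, here searched as GAAA, any 2 bases and GAAA, which was found in 15 of the 21 list members with a promoter in the table (71.4%) and in 3.65% of all promoters. The stretches of 4 members that were also higher in KO 2# than in KO 1# have the ISRE letters in capitals.
IFI44L (chr1:78620350-78620409, plus strand): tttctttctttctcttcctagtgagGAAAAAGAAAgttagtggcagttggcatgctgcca
IFI6 (chr1:27672251-27672310, minus strand): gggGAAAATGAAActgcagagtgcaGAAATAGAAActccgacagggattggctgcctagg
ISG15 (chr1:1013365-1013424, plus strand): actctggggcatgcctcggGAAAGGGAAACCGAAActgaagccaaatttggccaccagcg
OAS3 (chr12:112938437-112938473, plus strand): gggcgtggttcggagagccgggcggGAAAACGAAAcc
The run in ISG15 holds 2 matches that overlap, and that in IFI6 2 separate ones. IFI6 and ISG15, named outside the rule with their values known, also rose. IFI6 had 73 and 74 counts in WT and 3015 and 3110 in KO 2#, and ISG15 had 2848 and 3242 counts in KO 2# against 560 and 465 in WT.

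Genes of the BRPF1 complexes were called both ways with TMM scaling, much as all tested genes were (34.6% higher, 39.1% lower, median -0.13). Of the list 4 were called higher and 6 lower of 12 tested (median -0.14), or 0 and 9 with scaling by totals. With totals without the 20 most abundant genes the counts were 1 higher and 8 lower. KAT7, the HBO1 enzyme, which overlaps FAM117A on the opposite strand, had 8743 and 8017 counts in WT and 776 and 847 in KO 2# (log2 fold change -2.56, SE 0.082, adjusted p = 5.38e-15). The JADE scaffolds of the HBO1 complex fell, JADE1 with a log2 fold change of -2.12 ± 0.078 (SE), JADE2 -1.22 ± 0.12 and JADE3 -1.65 ± 0.14. The tumour suppressor subunit ING5 fell from 52.7 ± 1.82 to 30.1 ± 1.54 CPM, while BRPF3 rose from 43.5 ± 2.32 to 80.5 ± 5.75 CPM, a rise not called with library totals. KAT6A (0.38 ± 0.090), ING4 (0.57 ± 0.12) and MEAF6 (0.56 ± 0.11) were called higher with TMM, but with library totals the values were -0.37, -0.19 and -0.20. KAT6B was at 30.4 ± 0.803 CPM in WT and 31.2 ± 0.171 CPM in KO 2# and was not called. BRD1, a paralog of BRPF1, passed the threshold narrowly (log2 fold change -0.20, SE 0.087, adjusted p = 0.0467) and was not called when any 1 of the 4 libraries was left out.

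Of H3K4 methyltransferase and demethylase genes 3 were called higher and 11 lower of 20 tested (median -0.43), or 1 and 18 with scaling by totals, with KDM6A, the H3K27 demethylase of the COMPASS-like complexes, falling from 73.4 ± 1.97 to 22.6 ± 0.881 CPM and NCOA6 rising from 11.8 ± 0.643 to 56.4 ± 1.176 CPM. Polycomb genes split much as all tested genes did, 14 higher and 13 lower of 33 tested, or 9 higher and 24 lower with scaling by totals. The shares over all tested genes were 34.6% higher and 39.1% lower. PHC1, a PRC1 subunit abundant in stem cells, had 48599 and 43813 counts in WT and 1131 and 1216 in KO 2# (log2 fold change -4.49, SE 0.078, adjusted p = 1.2e-18), while BMI1, the PRC1 subunit known from somatic stem cells, had 102 and 123 counts in WT and 849 and 920 in KO 2# (log2 fold change 3.78, SE 0.15, adjusted p = 1.05e-13). YAF2, a PRC1-associated protein, rose from 0.352 ± 0.232 to 13.7 ± 0.543 CPM. Of splicing regulators 6 were called higher and 23 lower of 30 tested (median -1.14), or 3 and 26 with scaling by totals. Besides ESRP1, the RNA-binding RBM47 had 4733 and 4761 counts in WT and 0 and 6 in KO 2#, and the neuronal RBFOX3 had 5 and 1 counts in KO 2# against 1663 and 1300 in WT. Of imprinted genes 12 were called higher and 8 lower of 20 tested, with H19 at 14 and 18 counts in WT and 0 in KO 2# (not called without KO 2# replicate 2), PLAGL1 rising from 1.46 ± 0.525 to 43.8 ± 2.40 CPM and PHLDA2 from 3.15 ± 0.219 to 109.6 ± 0.407 CPM.

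Ribosome and metabolism genes mostly fell. Cytosolic ribosomal protein genes held 6.05% and 6.06% of the counts in WT and 2.45% and 2.47% in KO 2#, and 69 of 75 tested were lower and 3 higher (median -0.57). RPL3 and RPL8, 2 of their members, fell from 2185 ± 74.8 to 1125 ± 19.6 CPM and from 1269 ± 26.4 to 658 ± 20.96 CPM. Ribosome biogenesis genes followed, 3 higher and 20 lower of 30 (median -0.73), or 0 higher and 29 lower with scaling by totals, with FBL, fibrillarin, falling from 225 ± 10.04 to 50.6 ± 4.11 CPM and NPM1, nucleophosmin, another gene with processed copies, from 1375 ± 84.2 to 336 ± 2.58 CPM. HSP90AB1, a cytosolic chaperone with processed copies, fell from 2832 ± 30.5 to 1060.3 ± 13.1 CPM. EEF1A1, an elongation factor with many processed copies, went from 9229 ± 153 to 7776 ± 81.3 CPM, a log2 fold change of -0.25, yet ranked among the 6 largest losses in CPM because of its level. Of glycolysis genes 4 were called higher and 17 lower of 22 tested (median -0.81), or 1 and 19 with scaling by totals. SLC2A3, the glucose transporter GLUT3, fell from 764 ± 6.16 to 127 ± 2.72 CPM, ENO2 from 81.4 ± 1.21 to 9.26 ± 0.888 CPM and the lactate carrier SLC16A1 from 385 ± 13.5 to 97.7 ± 3.14 CPM, while the other lactate carrier SLC16A3 rose from 19.4 ± 1.77 to 314 ± 6.70 CPM. Of serine and one-carbon genes 2 were called higher and 17 lower of 20 tested (median -1.55), and GLDC, the glycine decarboxylase, had 7333 and 6749 counts in WT and 70 and 57 in KO 2# (log2 fold change -5.98, SE 0.13, adjusted p = 1.67e-17), while SLC1A4, a neutral amino acid transporter, rose from 1.56 ± 0.0244 to 51.5 ± 2.06 CPM.

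Secretory, lysosomal and sterol genes rose. Of ER stress and secretory chaperone genes 28 were called higher and 1 lower of 30 tested (median 1.03), of lysosome genes 25 were called higher and 3 lower of 29 tested (median 1.77) and of cholesterol genes 19 were called higher and 5 lower of 25 tested (median 1.13). With scaling by totals these became 17 higher and 6 lower, 19 higher and 7 lower and 14 higher and 9 lower. SEC61A1, the channel of the ER translocon, which overlaps RUVBL1, rose from 142 ± 2.79 to 812 ± 2.09 CPM and SSR3, a translocon subunit, from 102 ± 1.64 to 593 ± 0.155 CPM. TFEB, a master regulator of lysosomal genes, rose from 0.527 ± 0.0385 to 19.6 ± 0.594 CPM and the protease CTSZ from 25.1 ± 0.635 to 293 ± 16.3 CPM. INSIG1, a target of the sterol-regulated factor SREBP2, rose from 51.7 ± 1.39 to 413 ± 1.58 CPM. Mitochondrially encoded proteins were called higher with TMM, 13 of 13, but by totals 1 higher and 7 lower, and with totals without the 20 most abundant genes 6 higher.

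**Figure D3:**
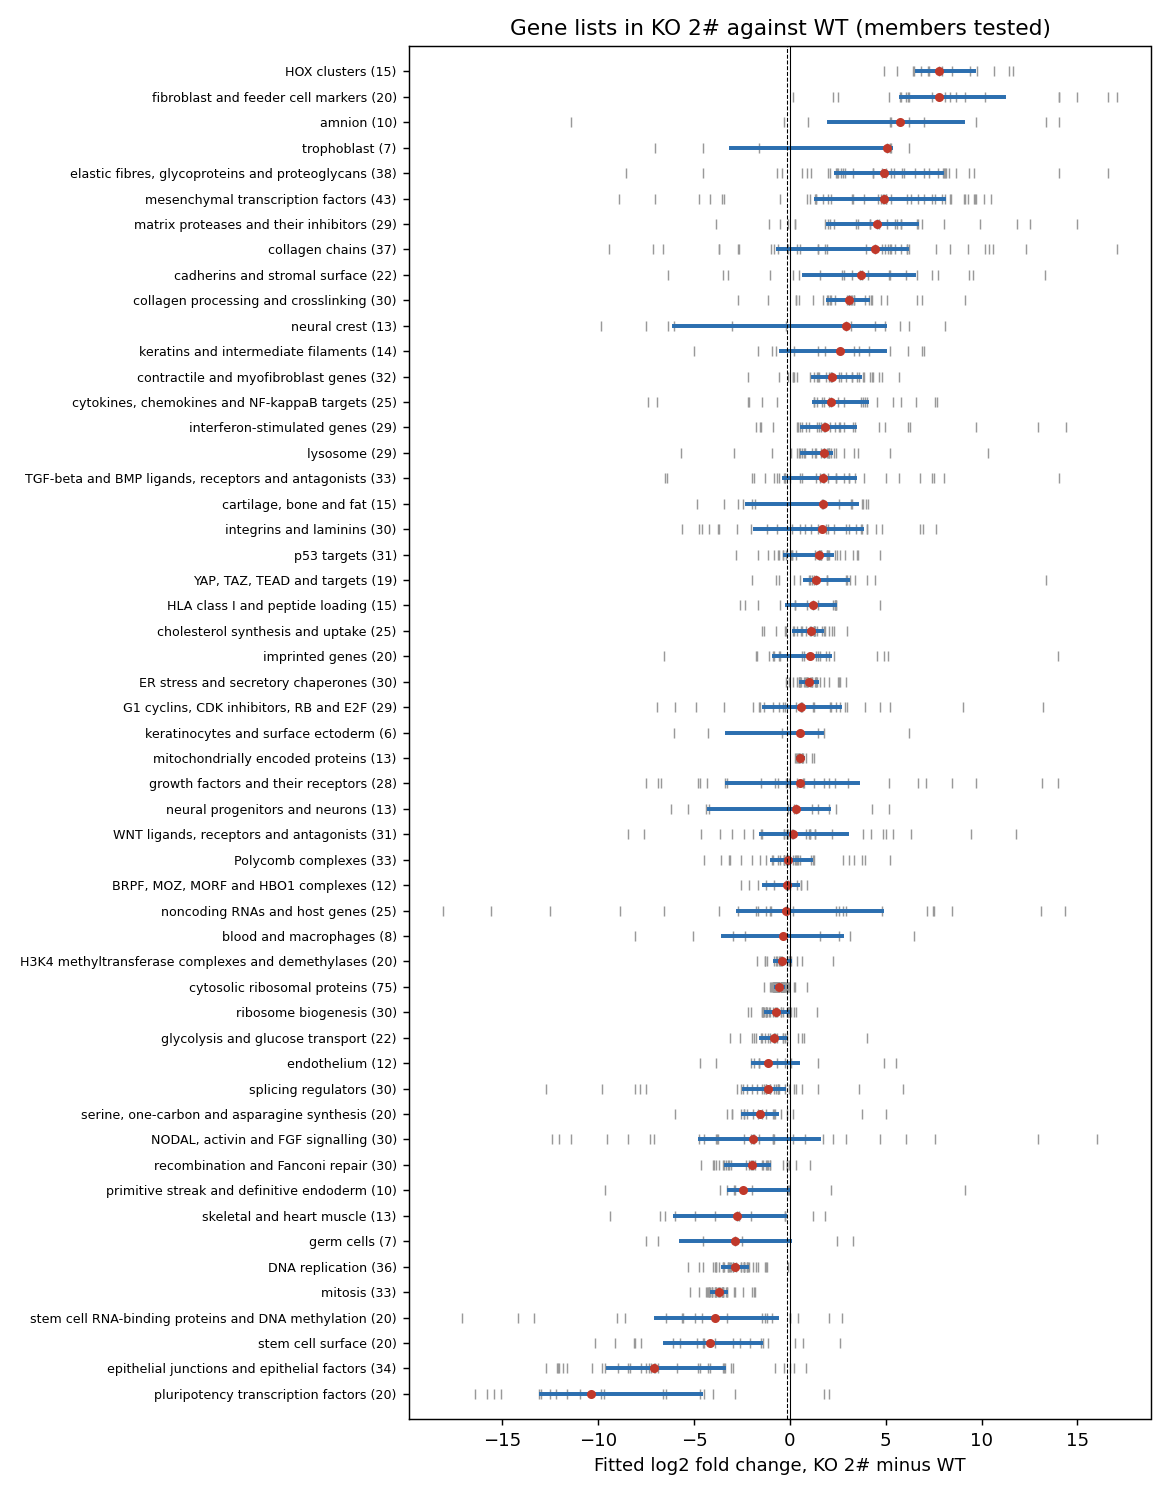
Fitted log2 fold change in KO 2# against WT for the tested members of each of 53 gene lists (number tested in brackets), with members as grey ticks, the median as a red dot and the quartiles as a blue bar. The dashed line is the median of all genes, -0.13: HOX, fibroblast and matrix lists lie to its right, mitosis, epithelial and pluripotency lists to its left.

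Markers of other cell types moved both ways within most lists. Of amnion genes 7 were called higher and 2 lower of 10 tested (median 5.76; summed level 46.7 and 41.1 CPM in WT and 8436 and 8675 in KO 2#), with POSTN, ANKRD1 and IGFBP3 high as in mesenchyme and the defining GABRP at 484 and 423 counts in WT and 0 in KO 2#. The defining ISL1 was not called, with 8 and 13 counts in WT and 9 and 15 in KO 2#. Of endothelial genes 2 were called higher and 6 lower of 12 tested (summed level 186 and 187 CPM in WT and 36.9 and 35.1 in KO 2#), with PECAM1 higher at 6.71 ± 0.142 CPM in KO 2#. Of blood genes 3 were called higher and 4 lower of 8 tested, and PTPRC, the leukocyte antigen CD45, had 0 and 7 counts in WT and 21 and 16 in KO 2# and was not called without WT replicate 1 or without KO 2# replicate 1. Of neural genes 6 were called higher and 4 lower of 13 tested, or 3 and 6 with scaling by totals, and of neural crest genes 7 were called higher and 5 lower of 13 tested, with the defining SOX10 falling from 2.57 ± 0.661 to 0.318 ± 0.164 CPM and SOX9 rising from 5.86 ± 0.222 to 53.3 ± 1.501 CPM. Of muscle genes 2 were called higher and 9 lower of 13 tested, led by RYR1 with 2570 and 2380 counts in WT and 0 and 4 in KO 2#. Of streak and endoderm genes 2 were called higher and 5 lower of 10 tested, or 1 and 6 with scaling by totals, and MIXL1 was at 0 in KO 2#. Of cartilage, bone and fat genes 8 were called higher and 5 lower of 15 tested (median 1.71). Their summed level differed little, at 221 and 213 CPM in WT and 236 and 252 in KO 2#. Of keratinocyte genes 3 were called higher and 3 lower of 6 tested (median 0.54). Of trophoblast genes 4 were called higher and 2 lower of 7 tested (median 5.05; summed level 16.3 and 14.1 CPM in WT and 155 and 146 in KO 2#). Of germ cell genes 2 were called higher and 4 lower of 7 tested (median -2.86; summed level 38.55 and 38.46 CPM in WT and 4.20 and 5.59 in KO 2#).

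Some abundant genes differed little. For 267 genes the 95% interval of the log2 fold change lay within -0.25 to 0.25. The most abundant of them were HSPA8, a cytosolic chaperone (765 ± 9.17 CPM in WT, 788 ± 12.0 in KO 2#), PFN1, profilin (507 ± 27.2 and 515 ± 22.7), the ribosomal RPL41 (529 ± 2.73 and 491 ± 26.0), the integrin subunit ITGB5 (481 ± 27.8 and 512 ± 3.62), the ubiquitin enzyme UBA1 (499 ± 20.5 and 466 ± 4.16) and the mitochondrial ribosomal RNA MT-RNR1 (409 ± 27.6 and 437 ± 7.56). HSPA8, PFN1 and RPL41 have processed copies that can share reads. The intervals assume the TMM scale. Scaled by totals each lay lower, ITGB5 at -0.67 in place of 0.090.

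By chromosome the share of tested genes called lower was between 35.1% and 46.8%. Chromosome 19 had the highest share, 46.8% of 1408 genes, and the lowest median log2 fold change, -0.45. This ranking of chromosomes was not tested.

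Against the same WT libraries KO 1# had 6872 genes called higher (35.0%) and 7607 lower (38.7%), close to the counts of KO 2#. In both sets 18 pluripotency factors and 33 mitosis genes were lower, and 20 fibroblast markers and 15 HOX genes were higher. These changes were therefore not particular to KO 2#. The change in KO 2# was set beside that in KO 1#, which shares the WT libraries, by a direct test between the knockout sets. In that test 311 genes (1.58%) were higher in KO 2# than in KO 1# and 448 (2.28%) lower, 3.86% in all. The 759 calls became 366 without KO 2# replicate 2, 477 without KO 2# replicate 1 and 1397 without KO 1# replicate 2. The stem cell factor SOX2 had 235 and 198 counts in KO 1# and 65 and 47 in KO 2#, so its fall from WT was -6.63 in KO 2# and -4.85 in KO 1# (difference -1.78, adjusted p = 5.66e-06). POU5F1 also was lower in KO 2#, at 1 and 1 counts against 10 and 22 (adjusted p = 0.00270). PODXL and LRRN1 were also lower in KO 2# than in KO 1#, with log2 fold changes of -0.46 and -1.79.

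Among genes with an average of at least 1 log2 CPM over the 4 knockout libraries, the largest rises over KO 1# were in PAPLN, MX2, PIWIL2, COL7A1, OAS3 and RWDD2B. COL7A1, the anchoring fibril collagen of basement membranes, had 3629 and 3126 counts in KO 1# against 16525 and 16392 in KO 2#, beside 669 and 612 in WT (log2 fold change 2.45, SE 0.084, adjusted p = 1.59e-11). PAPLN, papilin, a matrix protein that overlaps AC004846.1, had 13 and 14 counts in KO 1# against 301 and 316 in KO 2#, beside 349 and 273 in WT (log2 fold change 4.67, SE 0.27, adjusted p = 1.08e-08). Its change from WT was 0.80 in KO 2# and -3.87 in KO 1#, opposite in sign. PIWIL2, a germline small-RNA binding protein, had 17 and 8 counts in KO 1# against 120 and 151 in KO 2#, beside 555 and 422 in WT. RWDD2B had 34 and 23 counts in KO 1# against 113 and 110 in KO 2#, beside 30 and 76 in WT, and its WT libraries were over 2-fold apart.

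Among genes with an average of at least 1 log2 CPM over the knockout libraries, the largest falls below KO 1# were in PTPRZ1, LPL, A2M, RASAL3, FABP7 and GFAP. PTPRZ1, a receptor phosphatase of neural cells and embryonic stem cells, had 401 and 451 counts in KO 1# against 67 and 68 in KO 2#, beside 12298 and 12055 in WT (log2 fold change -2.49, SE 0.13, adjusted p = 2.04e-09). A2M, a protease inhibitor of plasma that overlaps A2M-AS1, rose from 0.189 CPM in WT to 6.27 in KO 2#, and held 922 and 1068 counts in KO 1# against 177 and 182 in KO 2#. RASAL3, a RAS GTPase-activating protein, had 613 and 590 counts in KO 1# against 110 and 112 in KO 2#, beside 61 and 29 in WT. FABP7 and GFAP are markers of glia. FABP7 had 205 and 217 counts in KO 1# against 48 and 32 in KO 2#, beside 168 and 107 in WT. GFAP had 332 and 301 counts in KO 1# against 57 and 73 in KO 2#, beside 36 and 29 in WT. LPL, lipoprotein lipase, had 196 and 254 counts in KO 1# against 31 and 50 in KO 2#, beside 283 and 210 in WT. In each of these 6 genes, which were chosen for their falls, the KO 2# libraries lay below the KO 1# libraries.

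Interferon-stimulated genes were higher in KO 2# than in KO 1# in 13 of 29 tested members, against 1.58% of all genes. Over the alternatives run this count lay between 9 and 16. ISG15, an ubiquitin-like modifier, had 1366 and 1464 counts in KO 1# against 2848 and 3242 in KO 2#, beside 560 and 465 in WT (log2 fold change 1.27, SE 0.085, adjusted p = 6.83e-08). MX2, an antiviral GTPase, had 31 and 47 counts in KO 1# against 457 and 514 in KO 2#, beside 502 and 434 in WT. OAS3, also a sensor of double-stranded RNA, had 30 and 25 counts in KO 1# against 103 and 127 in KO 2#, beside 95 and 107 in WT. MX2 and OAS3 were above WT in KO 2# and below WT in KO 1#, but the rise of OAS3 over WT was not called without WT replicate 1 or without KO 2# replicate 2, and with library totals neither rise was called. Of the 13 higher members 9 have a promoter in the table, and all 9 hold the ISRE letters.

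Mitosis genes were lower in KO 2# than in KO 1# in 20 of 33 members and higher in 3, and DNA replication genes lower in 11 of 36. Of all tested genes 2.28% were lower and 1.58% higher. TOP2A had 1306 and 1369 counts in KO 1# and 624 and 600 in KO 2# (log2 fold change -0.96, SE 0.079, adjusted p = 9.15e-07), and CENPA, the centromeric histone, which overlaps SLC35F6, had 112 and 98 in KO 1# and 35 and 37 in KO 2# (log2 fold change -1.37, SE 0.23, adjusted p = 0.00178). Without KO 2# replicate 2 the counts were 13 lower and 1 higher for mitosis and 3 lower for DNA replication, and without KO 2# replicate 1 the count for DNA replication was 6. The 3 members that were higher were CENPE, CENPF and ASPM, large kinetochore and spindle proteins. CENPE had 24 and 46 counts in KO 1# and 63 and 150 in KO 2#, with its KO 2# libraries over 2-fold apart. CENPF had 266 and 329 in KO 1# and 428 and 449 in KO 2#, and ASPM had 173 and 136 and 194 and 276. CENPE and ASPM were not called without KO 2# replicate 2. The longest transcripts of the 3 genes had a median length of 10.3 kb and a GC content of 37.1%, against 3.15 kb and 45.0% for the 20 lower members.

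**Figure D4:**
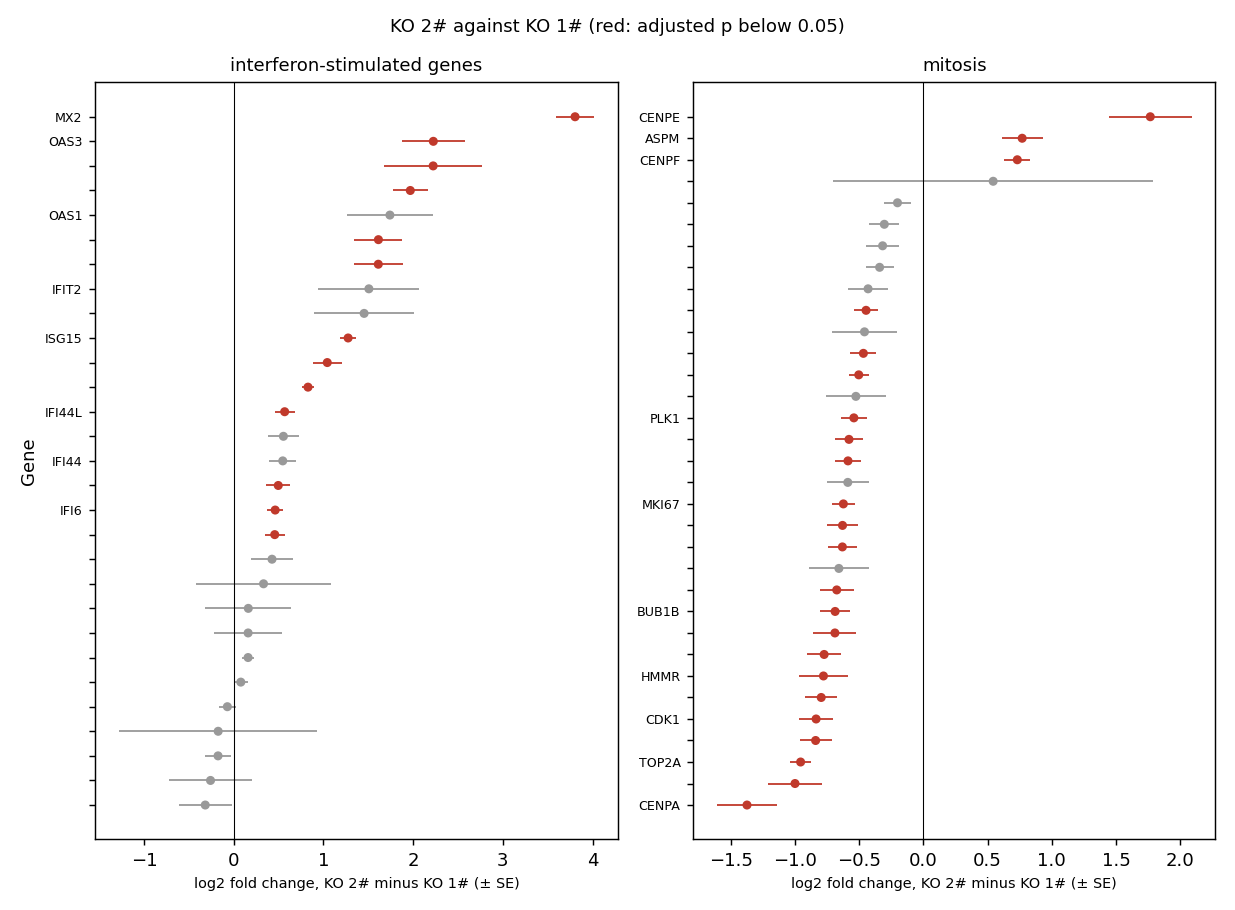
Log2 fold change of KO 2# against KO 1# with its SE for the tested interferon-stimulated genes (left, 29 genes) and mitosis genes (right, 33 genes), in the order of their values, with genes at an adjusted p below 0.05 in red and genes named in the text labelled. On the left 13 genes are called and lie to the right of 0, and on the right 20 called genes lie to the left and CENPE, ASPM and CENPF to the right.

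GC content moved with this comparison. Genes higher in KO 2# than in KO 1# had a median GC content of 42.8% in their longest transcript and genes lower 52.9%, against 48.7% of all tested genes. In 5 groups of equal size, from the lowest to the highest GC, the median log2 fold change went from 0.07 to -0.05. The part of this in the single calls was not tested. The 13 interferon-stimulated genes that were higher had a median of 48.8%. In KO 2# against WT the genes called higher and lower had similar medians, 48.7% and 49.2%.

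**Figure D5:**
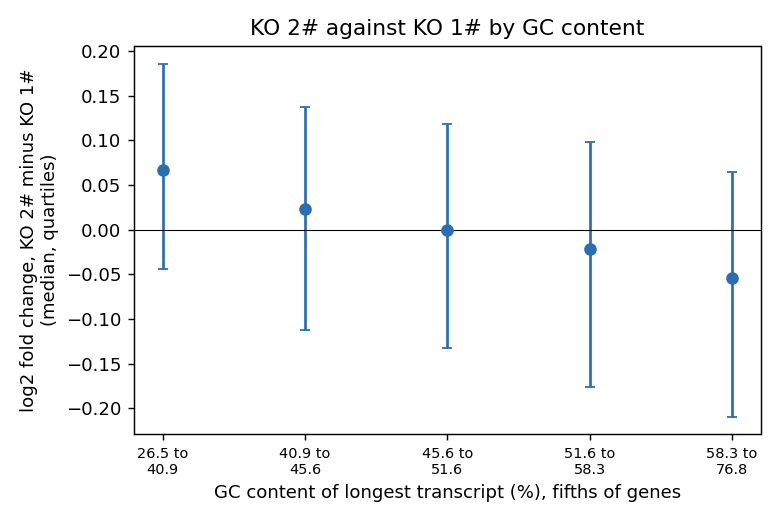
Median log2 fold change of KO 2# against KO 1# (points) with quartiles (bars) in 5 groups of genes of equal size, ordered by GC content of the longest annotated transcript, for genes with an average log2 CPM of at least 1. The medians step down from 0.07 in the group lowest in GC to -0.05 in the group highest, within quartiles that overlap.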

How the data were processed

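RNA of H1 cells was sequenced in 6 libraries, 2 each of WT, KO 1# and KO 2#. The deposited values were counts of reads per gene for 58395 gene identifiers, made by the authors before deposit. The submitters' processing notes name HISAT2 2.0.4, SAMtools 1.3.1, HTSeq 0.6.0, DESeq 1.18.1 and the build GRCh38. Their settings, the release of the annotation and any use of strand were not given in the sources used here. A count limits precision through its depth, which was 33421785 to 38098779 counts per library.

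Counts were fitted with edgeR 4.0.16 (limma 3.58.1, R 4.3.3), with TMM scaling, filterByExpr at a minimum count of 10, a robust quasi-likelihood fit to all 6 libraries, and Benjamini-Hochberg adjustment over 19660 genes. Calls were made where the adjusted p was below 0.05. The SE of a log2 fold change was taken from the F statistic. CPM are counts over the TMM-scaled library size. Folds against a group at 0 counts in both libraries are bounds from a floor of 3 counts per library, and ratios against 1 to 3 counts carry an exact 95% interval. Both cover counting error only. The fit was tested on simulated counts in which few genes changed, equally up and down. Such counts cannot test the scaling in a comparison where most genes are called.

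Names, positions, lengths and gene types came from GENCODE 29 on GRCh38, which held 58275 of the 58395 identifiers, and promoters from RefSeq on GRCh38.p14. Members and lists were chosen with earlier results of these data known. Genes were named by these rules: the 8 largest rises and 8 largest falls among called genes with an average log2 CPM of at least 1, the same among genes with at least 10 counts in each of the 4 libraries, the 6 largest gains and losses in CPM, the 6 most abundant steady genes, the 6 largest called rises and falls of KO 2# against KO 1# with that average over the knockout libraries, up to 4 called members per list, the defining markers of other cell types, the BRPF complex genes, POU5F1, SOX2 and NANOG. PODXL, EPCAM, CDH1, IFI6, ISG15, THY1, MKI67, PLK1, CENPA, CENPE, CENPF and ASPM were named with their values known. Some genes these rules name are not reported here. Alternatives were other scalings, filters, DESeq2 1.42.0, 4 libraries, a replicate block, a non-robust fit and leaving out each library.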

Additional observations from a re-analysis of the deposited data

Results flagged for a closer look

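A difference of opposite sign between the knockout sets was found for 4 genes named above. Each was called against WT in both sets, in opposite directions, and called in the direct test of KO 2# against KO 1# by edgeR. PAPLN, papilin, was 0.80 in KO 2# and -3.87 in KO 1# against WT, a difference of 4.67 (adjusted p = 1.08e-08). MX2, an interferon-stimulated GTPase, was 0.86 and -2.94, a difference of 3.81 (adjusted p = 5.47e-09). OAS3, an interferon-stimulated oligoadenylate synthetase, was 0.99 and -1.24, a difference of 2.22 (adjusted p = 8.72e-04). FABP7, a fatty acid binding protein of radial glia, was -0.96 and 1.26, a difference of -2.22 (adjusted p = 2.53e-04). With library totals the KO 2# values against WT of PAPLN, MX2 and OAS3 were 0.044, 0.10 and 0.23 and were not called. The KO 2# values of OAS3 and FABP7 against WT were also not called without WT replicate 1 or without KO 2# replicate 2. Over all tested genes 19 showed such opposite calls.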

How the results depend on the processing

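The scaling between libraries decides the split of calls against WT. Library totals gave 4085 genes higher and 11437 lower of 15522 called, and totals without the 20 most abundant genes 5187 and 9772. The other alternatives gave 12940 to 14741 calls, of which at least 12749 were the same genes in the same direction. Of the 6 steady genes 4, THY1 and some members of the BRPF1 complexes, changed sign with scaling. With library totals the log2 fold changes were -0.72 for HSPA8, -0.59 for THY1, -0.74 for PFN1, -0.67 for ITGB5, -0.66 for MT-RNR1, -0.37 for KAT6A, -0.72 for KAT6B, -0.19 for ING4 and -0.20 for MEAF6. With totals without the 20 most abundant genes they were -0.37 for HSPA8, -0.24 for THY1, -0.39 for PFN1, -0.32 for ITGB5, -0.32 for MT-RNR1, -0.027 for KAT6A and -0.38 for KAT6B. With DESeq2, or its size factors in edgeR, PFN1 moved to -0.015 and KAT6B to -0.0025. Leaving out 1 library took PFN1 from -0.034 to 0.076 and BRPF1 from -0.21 to 0.082. No other gene named for this comparison changed sign under any alternative run.

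The calls between the knockout sets depend on single libraries. The 759 calls ranged from 366 to 1397 when 1 library was left out, with 153 to 695 higher and 213 to 702 lower. DESeq2 gave 522 higher and 460 lower, and a fit to the 4 knockout libraries 512 and 489. Over all 19660 genes same-numbered replicates showed little common deviation (correlation of deviations 0.01 for WT and KO 2#, 0.03 for KO 1# and KO 2#). A correlation over all genes cannot exclude a pairing that touches part of them, and the labels do not state one. With a replicate block 1633 genes were called between the knockout sets in place of 759, 804 higher and 829 lower, and against WT 14440. Of 22 genes named for KO 2# against KO 1#, CENPE and ASPM without KO 2# replicate 2 and LRRN1 in the fit to 4 libraries lost their call. The causes of these shifts were not tested.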
